A study of Homo sapiens with 8 samples.

Results

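The chromatin regions occupied by AML1-ETO were set against those occupied by ETO2-GLIS2 after 12 h of induction in U937 cells, a human monocytic cell line. The regions were all peaks on chromosomes 1 to 22 of the 12 h lists, 70063 of 70964 deposited AML1-ETO peaks and 28019 of 28393 deposited ETO2-GLIS2 peaks. A peak was called shared when it had at least 1 bp in common with a peak of the other list, and otherwise AML1-ETO only or ETO2-GLIS2 only. The classes were made once from all peaks and once from the strong peaks, those whose −log10 q was 10 or more, q being the false discovery rate that the peak caller gave.

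Each fusion protein was expressed from a doxycycline-inducible retroviral construct with an HA tag at its N-terminus, in a U937 line grown from a single cell, and was precipitated with anti-HA after 12 h in 5 µg/ml doxycycline. Clone #4 carried AML1-ETO and clone #14 carried ETO2-GLIS2, so fusion protein and clone cannot be told apart. The treatment label of the 12 h samples names 48 h, while their titles and characteristics give 12 h, and 12 h was used. There was 1 ChIP library for each protein, called against input, so no difference has a replicate check and no test was made. Ranges after percentages are 95% Clopper-Pearson intervals, which are exact for binomial counts, and they cover counting error only, since neighbouring peaks are not independent.

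AML1-ETO is the product of the translocation that fuses RUNX1 to RUNX1T1 in acute myeloid leukaemia and joins the Runt domain of RUNX1, which contacts DNA, to nearly all of ETO (RUNX1T1), a corepressor. ETO2-GLIS2 arises by an inversion in acute megakaryoblastic leukaemia of children and joins the amino-terminal part of ETO2 (CBFA2T3), a paralogue of ETO, to the zinc fingers of GLIS2, which favour G-rich sites. The fusions thus share related ETO parts and differ in the domain that contacts DNA.

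Sequences at the summits of leading peaks show the kinds of region that fell in each class. They run 50 bases to either side of the summit on the plus strand of GRCh37, 5′ to 3′, and capitals mark matches on either strand to the Runt motif (TGTGGT or TGCGGT), the GLIS motif (TGGGGGG), the ETS motif (CCGGAAGT) or the AP-1 motif (TGACTCA or TGAGTCA). The SH3BP1 promoter and the region upstream of RUNX3 were the strongest shared promoter and distal regions, and the other sequences come from the strongest regions occupied by 1 protein whose fold enrichment was at least 2. The BAHCC1 sequence was added after the values were seen.
SH3BP1 promoter, AML1-ETO summit (chr22:38029740-38029840): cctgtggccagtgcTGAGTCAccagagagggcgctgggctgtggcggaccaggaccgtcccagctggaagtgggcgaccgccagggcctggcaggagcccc
SH3BP1 promoter, ETO2-GLIS2 summit (chr22:38029808-38029908): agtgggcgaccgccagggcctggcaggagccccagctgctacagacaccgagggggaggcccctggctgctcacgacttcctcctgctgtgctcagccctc
RUNX3 upstream region, AML1-ETO summit (chr1:25360622-25360722): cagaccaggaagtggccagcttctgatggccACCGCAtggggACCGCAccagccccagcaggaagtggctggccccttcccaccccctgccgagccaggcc
CHD2, AML1-ETO only (chr15:93425898-93425998): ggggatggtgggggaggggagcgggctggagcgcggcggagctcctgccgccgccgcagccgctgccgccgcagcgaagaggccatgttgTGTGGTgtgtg
BAHCC1, AML1-ETO only (chr17:79399097-79399197): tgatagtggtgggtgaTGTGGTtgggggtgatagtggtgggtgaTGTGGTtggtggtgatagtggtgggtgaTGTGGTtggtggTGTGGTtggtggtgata
region nearest KRTAP5-6, AML1-ETO only (chr11:1691848-1691948): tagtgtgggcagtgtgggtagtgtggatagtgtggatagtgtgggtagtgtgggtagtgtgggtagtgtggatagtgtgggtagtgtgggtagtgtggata
TLE6 promoter, ETO2-GLIS2 only (chr19:2977353-2977453): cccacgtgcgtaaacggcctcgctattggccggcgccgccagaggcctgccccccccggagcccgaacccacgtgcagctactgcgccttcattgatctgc
BACH1, ETO2-GLIS2 only (chr21:30665924-30666024): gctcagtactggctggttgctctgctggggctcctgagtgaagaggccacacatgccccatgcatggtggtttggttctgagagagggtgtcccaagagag

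At SH3BP1 the AML1-ETO summit window held an AP-1 match, and neither summit window held a Runt or a GLIS match. The window upstream of RUNX3 held 2 Runt matches, and the ETO2-GLIS2 summit lay inside the same window, 6 bp from the AML1-ETO summit. CHD2 had 1 Runt match. The BAHCC1 and KRTAP5-6 windows were tandem repeats, with 4 Runt matches in the first and the shorter run TGTGG many times over in the second. TLE6 and BACH1 held no match to any of the 4 motifs.

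Most ETO2-GLIS2 peaks lay on AML1-ETO peaks, and the reverse did not hold. Of the ETO2-GLIS2 peaks, 20871 (74.5%, 74.0 to 75) were shared and 7148 were not. Of the AML1-ETO peaks, 18355 (26.2%, 25.9 to 26.5) were shared and 51708 were not. The AML1-ETO list was the longer one, and its peaks covered 50.4 Mb against 17.1 Mb for ETO2-GLIS2. With the same number of strongest peaks in each list, 64.6% of ETO2-GLIS2 peaks and 53.5% of AML1-ETO peaks were shared, so the asymmetry was much smaller at equal list length. The lists hold no read numbers. In the values that the study lists, the AML1-ETO library had both the larger read total and the higher mapping rate. Peaks were not called again at equal depth here, so the part of depth in the list lengths was not tested. Fold enrichment and −log10 q are described only within each list.

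Sharing followed strength. Each list was cut into deciles by −log10 q. In the strongest decile of the ETO2-GLIS2 list, 98.0% of peaks overlapped AML1-ETO, and in the weakest decile 40.5% did. For AML1-ETO these shares were 86.1% and 3.88%. Promoter peaks were shared more often than distal peaks of the same decile in both lists, except in the strongest decile of the ETO2-GLIS2 list, where the intervals overlap. Percent rank is the position in a list ordered by −log10 q, as a percentage of the list, with 0 as the strongest. Shared peaks had a median percent rank of 16.7 in the AML1-ETO list and 39.8 in the ETO2-GLIS2 list, while the median was 60.9 for the AML1-ETO only class and 76.8 for the ETO2-GLIS2 only class. Only 56 of 7148 ETO2-GLIS2 only peaks (0.783%) were in the strongest decile of their list.

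Among the 30 strongest peaks, 30 of the ETO2-GLIS2 list and 24 of the AML1-ETO list were shared. The 24 include the intergenic peaks nearest PLEKHG4B (rank 3) and ANHX (rank 9), whose fold enrichments were only 11.7 and 8.43. Of the 30 strongest ETO2-GLIS2 peaks 6 lay on chromosome 20, which held 3.30% of the list, among them the promoters of HM13 (rank 4), the receptor CD93 (rank 6) and the survival gene BCL2L1 (rank 8).

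**Figure D1:**
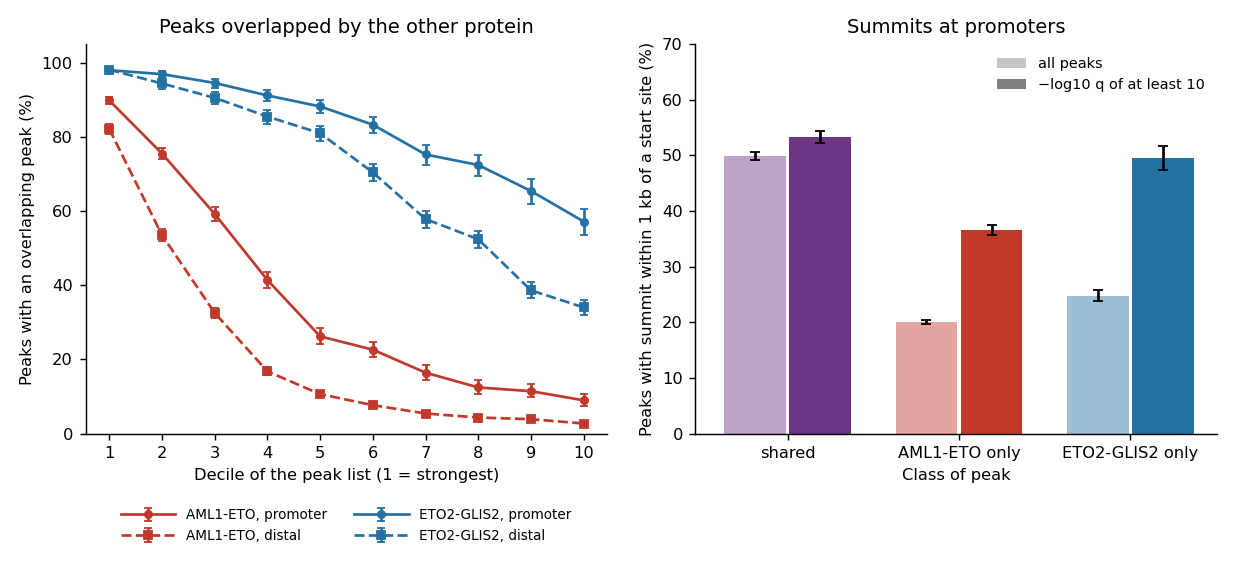
Left, share of the peaks in each decile of the list (1, strongest) that overlap a peak of the other protein, for AML1-ETO (red) and ETO2-GLIS2 (blue), at promoters (solid) and distal (dashed). Right, share of each class whose summit lies within 1 kb of a start site, for all peaks (pale) and for −log10 q of at least 10 (dark); bars on points and columns are exact 95% intervals, and the ETO2-GLIS2 only class goes from 24.8% to 49.5%.

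Shared peaks were also the widest. A wide peak meets the rule of 1 bp more easily, and the part of that rule in the widths was not tested. The median width of a shared AML1-ETO peak was 1177 bp and of a shared ETO2-GLIS2 peak 488 bp, against 290 bp for AML1-ETO only and 250 bp for ETO2-GLIS2 only. In the 21877 overlapping pairs the AML1-ETO peak was the wider one in 80.8%, with a median ratio of 2.26. One AML1-ETO peak often covered several peaks of the other protein: 2701 of the 18355 shared AML1-ETO peaks (14.7%) had more than 1 ETO2-GLIS2 partner, and the most was 9.

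At a −log10 q of at least 10, 8815 of 10926 ETO2-GLIS2 peaks (80.7%) and 8206 of 18964 AML1-ETO peaks (43.3%) were shared. This threshold was applied to both lists, so a single-protein peak could still lie on a weaker peak of the other protein. That was so for 1439 of the 2111 ETO2-GLIS2 only peaks (68.2%) and for 4444 of the 10758 AML1-ETO only peaks (41.3%). What remained without any peak of the other protein were 672 strong ETO2-GLIS2 peaks (6.15% of 10926) and 6314 strong AML1-ETO peaks (33.3% of 18964).

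Shared regions were promoters more often than regions of 1 protein. A promoter summit lay within 1 kb of a start site of any annotated gene, and every other summit was called distal. Promoters made up 49.9% of shared peaks (49.1 to 50.6), 19.6 to 20.3% of AML1-ETO only peaks (10340 of 51708) and 24.8% of ETO2-GLIS2 only peaks (23.8 to 25.8). Among peaks with a −log10 q of at least 10 the shares were 53.4%, 36.6% and 49.5%. Among strong peaks the ETO2-GLIS2 only class thus came close to the shared class in its promoter share, while the AML1-ETO only class stayed mainly distal. Most of that ETO2-GLIS2 only class lay on weaker AML1-ETO peaks, however. Where no peak of the other protein was present at any strength, promoters made up 39.6% of 672 strong ETO2-GLIS2 peaks. For the 6314 such AML1-ETO peaks the promoter share was 28.1%.

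Within the shared pairs the strengths of the proteins were weakly related. The Spearman correlation of the percent ranks was 0.274 over all pairs, 0.197 at promoters and 0.338 at distal sites, given as a description because neighbouring pairs share fragments and cells. Both peaks were in the strongest decile of their lists in 1946 pairs. AML1-ETO was in the strongest decile and ETO2-GLIS2 below the median of its list in 2272 pairs, while the reverse was found in 191 pairs. The percent ranks come from lists of 70063 and 28019 peaks, and their medians over all pairs were 14.2 for AML1-ETO and 38.7 for ETO2-GLIS2. A wide AML1-ETO peak can also enter several pairs. The part of list length and peak width in these counts was not tested. Summits were a median of 177 bp apart, 223 bp at promoters and 139 bp at distal sites, and 53.0% of the pairs had summits within 200 bp.

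**Figure D2:**
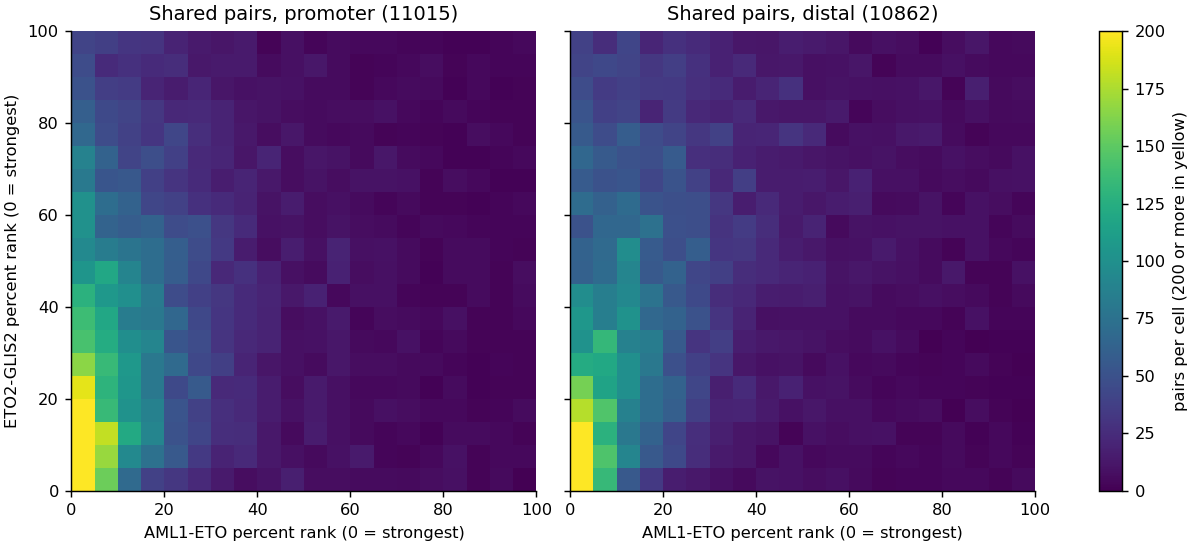
Percent rank of the AML1-ETO peak (x axis) against that of the ETO2-GLIS2 peak (y axis), 0 being the strongest, for 11015 promoter pairs (left) and 10862 distal pairs (right), counted in cells of 5 by 5 points. Pairs crowd along the left edge, where AML1-ETO is strong, at every strength of ETO2-GLIS2, and few lie at the lower right.

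Shared regions were ordered by the weaker of their percent ranks. SH3BP1, a GTPase-activating protein, came first with rank 26 of the AML1-ETO list (fold enrichment 104) and rank 7 of the ETO2-GLIS2 list (199). DENND4B, an exchange factor for RAB10, stood at ranks 44 (73.9) and 2 (223). The tumour suppressor RASSF1 had ranks 97 (70.5) and 54 (90.7). NDRG1, a stress-responsive gene, had ranks 122 and 13. The remaining region, with ranks 147 and 41, lay at the start of a gene that codes for no protein, 62798 bp from the nearest protein-coding start, ZNF706. All 5 had percent ranks of at most 0.210 for AML1-ETO and 0.193 for ETO2-GLIS2, and DENND4B had the highest fold enrichment of the whole ETO2-GLIS2 list.

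Shared distal regions were as strong. The region 69060 bp from the nearest protein-coding start, that of the transcription factor RUNX3, had rank 12 for AML1-ETO (120-fold over background) and rank 5 for ETO2-GLIS2 (163-fold). An intronic region 3873 bp from GNAI2, which codes for a subunit of inhibitory G proteins, had ranks 24 and 9. An exonic region 39453 bp from CD93, a receptor of myeloid cells, had ranks 21 and 15. PPP1R18, a regulator of a phosphatase, had ranks 32 and 19, and a region 24787 bp from COX4I1, a subunit of cytochrome oxidase, had 49 and 21. All 5 were also near the top of the 48 h lists, at ranks 22 to 204 for AML1-ETO and 4 to 83 for ETO2-GLIS2.

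AML1-ETO only promoters stood nearer the top of their list than ETO2-GLIS2 only promoters did. CHD2, a chromatin remodeller, had rank 28 of 70063. Its summit was a promoter by another annotated start, 3485 bp from the nearest protein-coding one. MGAT2, which extends N-linked glycans in the Golgi, had rank 193 (64.4). UGGT2 (rank 215), a sensor of glycoprotein folding, LRRC58 (348) and CNIH1 (373), which sorts cargo out of the endoplasmic reticulum, followed. All 5 had a peak in both 48 h lists, at ranks 24 to 347 for AML1-ETO and 10370 to 27441 for ETO2-GLIS2.

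The strongest ETO2-GLIS2 only promoter, that of TLE6, a member of the Groucho family of corepressors, had rank 769 of 28019 (fold enrichment 49.2). AHCTF1, a nuclear pore protein, had rank 810 (44.3), the small GTPase RRAS 1158 (38.3) and BBS12, a gene of the primary cilium, 1326 (33.9). At 48 h TLE6, AHCTF1 and RRAS had an AML1-ETO peak, at ranks between 4934 and 22886. BBS12 was free of AML1-ETO at both times and had ETO2-GLIS2 rank 2176 at 48 h.

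Distal AML1-ETO only regions included the strongest peaks of the whole list. Rank 1 (fold enrichment 182) was an intergenic region of 8481 bp at chr11:1688136-1696616, 26527 bp from KRTAP5-6, and rank 2 (161) was an intronic region at BAHCC1, chr17:79395543-79399874. A region 55485 bp from SPSB1 had rank 7 (63.7) and one in an intron, nearest to BDH1, rank 11 (41.8). A narrow peak nearest to ZNF707 had rank 27 with a fold enrichment of only 10.8. The first 4 of these regions held 92, 86, 46 and 23 copies of TGTGG, between 8.06 and 19.9 per kb, where chromosomes 1 to 22 hold 2.58 per kb. By the longer Runt motif they held 6, 72, 34 and 35 matches. The 6 at KRTAP5-6 were 0.707 per kb, under the 0.857 per kb of chromosomes 1 to 22. Dense TGTGG was not confined to this class, since the shared peak nearest ARHGAP39 (rank 14) held 9.71 per kb.

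The leading distal ETO2-GLIS2 only peaks were of mixed kind. Of the 5 strongest by −log10 q, 3 had almost no enrichment. These, nearest to UQCRFS1 (rank 197), ZNF33B (1034) and FAM72B (1204), had fold enrichments of 1.79, 1.53 and 1.24 and lay at least 645780 bp from the named start. Ranked by fold enrichment these 3 regions had ranks between 27992 and 28016 of 28019. The other pair were ordinary peaks. They were an intronic region at BACH1, a repressor of haem and oxidative stress genes, at rank 792 (48.5), and an exonic region at PPP1R12B, a subunit of myosin phosphatase, at rank 1447 (30.2). Such low enrichment was rare in the class. Of the ETO2-GLIS2 peaks with a −log10 q of at least 10, 22 had a fold enrichment under 2, 19 of them ETO2-GLIS2 only, against 3 such AML1-ETO peaks, all shared. These 19 were among 672 strong ETO2-GLIS2 peaks without any AML1-ETO peak. Of the 672, 406 were distal, with a median fold enrichment of 8.14, and 17 of the 406 were under 2.

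Some shared regions were strong for only 1 protein. Among ETO2-GLIS2 peaks in the strongest 5%, an intronic region at GOLGA7B had rank 954 (fold enrichment 43.7) and an AML1-ETO partner at rank 68051 (2.47). BCL9L, a cofactor of β-catenin, had 1227 and 63625, the region nearest RPLP1 1156 and 62880, the TMBIM1 promoter 1159 and 57238, and DPYSL5 997 and 57026. The reverse held at the promoter of TIMM17A, a subunit of the mitochondrial import machinery, with AML1-ETO rank 826 (40.2) and ETO2-GLIS2 rank 27914 (2.84). RREB1 had AML1-ETO rank 1841 and ETO2-GLIS2 rank 27546, ZNF397 2648 and 27409, CFAP99 29 and 27240, and CD3E 3437 and 27142. All 10 were chosen for this contrast, so the ranks are a description.

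Promoters of protein-coding genes were next sorted by class. A gene counted as shared when any shared peak had its summit within 1 kb of one of its start sites. Of 19229 genes on chromosomes 1 to 22, 7803 had a shared promoter (40.6%), 363 had separate peaks of both proteins, 2629 had AML1-ETO only (13.7%), 418 had ETO2-GLIS2 only (2.17%) and 8016 had none (41.7%). At a −log10 q of at least 10 the shares were 22% shared, 15.7% AML1-ETO only and 4% ETO2-GLIS2 only. The gene lists that follow are read against these shares, and their counts carry no test. Unless stated, their classes are those of all peaks, so a member can be named for a weak peak. Ranks given for a gene are those of the strongest peak of each protein at its start sites, AML1-ETO first. They are ranks among 70063 and 28019 peaks, so equal ranks are not equal percent ranks.

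Regulators of transcription and growth had the most shared promoters. In the AP-1 family, dimeric factors that answer growth and stress signals, 13 of 14 promoters were shared. Only BATF2 was AML1-ETO only, by a peak with a −log10 q of 3.87. JUND was the strongest for ETO2-GLIS2, with rank 81 (118-fold) and AML1-ETO rank 1715, and FOSL2 the strongest for AML1-ETO, with rank 964 and ETO2-GLIS2 rank 7585. In the NF-kB family and its feedback genes 12 of 13 were shared, led by the inhibitor NFKBIA with ranks 145 and 742. RELB was AML1-ETO only, by a peak with a −log10 q of 1.9. Cell cycle genes were shared in 25 of 29, with the inhibitor CDKN1A at AML1-ETO rank 656 and ETO2-GLIS2 rank 2311, and CDKN1B at ranks 3264 and 280. The kinase CDK4 and its partner CCND3 stood nearer the top for ETO2-GLIS2, at ranks 283 and 718, than for AML1-ETO, at ranks 12873 and 21259, although the CCND3 peaks lay at different start sites.

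Genes of the ETO family, its corepressors and chromatin regulators were shared in 17 of 20. HDAC1, a histone deacetylase that ETO proteins recruit, had ETO2-GLIS2 rank 23 (135-fold) and AML1-ETO rank 9022. DNMT3A, a DNA methyltransferase, was near the top of both lists, at AML1-ETO rank 936 and ETO2-GLIS2 rank 911. CBFA2T2 and GPS2 were AML1-ETO only, and RUNX1T1 had no peak.

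Stem-cell and leukaemia transcription factors were shared in 19 of 23, and their AML1-ETO peaks were strong: the median percent rank over 20 promoters with an AML1-ETO summit was 2.66, against 17.1 over all genes with one. For ETO2-GLIS2 it was 14.9 over 19 promoters, against 32.2 over all. RUNX2 had AML1-ETO rank 221 and ETO2-GLIS2 rank 2485, RUNX1 405 and 1754, and LMO2, a bridging protein of the TAL1 complex, 412 and 9455 at different start sites. RUNX3 turned this order round, with AML1-ETO rank 678 and ETO2-GLIS2 rank 85. TAL1 and ERG were AML1-ETO only, TAL1 by a peak with a −log10 q of 8.74, and LYL1 and MECOM had no promoter summit.

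Myeloid transcription factors were shared in 17 of 23, and their median percent rank was lower, that is stronger, for ETO2-GLIS2 (11.5) than for AML1-ETO (16.3). Only the MHC class II, HOX and cadherin lists also had this order. CEBPG had ranks 422 and 803, GFI1 866 and 2375, and CEBPA, which directs granulocyte fate, 7024 and 1125. CEBPD, BCL6 and MITF were AML1-ETO only, and of these BCL6 alone had a strong peak.

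Granule proteins were shared in 7 of 15 and AML1-ETO only in 4 (CTSG, LYZ, MMP9 and SRGN), of which CTSG alone had a strong peak. CAMP, an antimicrobial peptide, had ranks 213 and 2004 and the elastase ELANE 8877 and 1711. Monocyte receptor and surface genes were shared in 9 of 21 and AML1-ETO only in 6 (ITGAM, FCGR2A, CD33, CCR2, CX3CR1 and TLR4). The TLR4 peak was not strong. ITGB2, the common chain of the leukocyte integrins, had AML1-ETO rank 50 (90.8-fold) and ETO2-GLIS2 rank 183 (90.0-fold). Of 16 megakaryocyte and platelet genes only NFE2 and FLI1 were shared, ITGA2B was AML1-ETO only, GFI1B was ETO2-GLIS2 only and 12 had no summit, a larger part than the 41.7% of all genes. The ITGA2B and GFI1B peaks were not strong, with −log10 q values of 8.74 and 8.54.

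Chemokine and interleukin genes were mostly free of both proteins. Of 85 chemokine and interleukin genes, 8 were shared (9.41%), 17 were AML1-ETO only (13.7% of all genes were) and 59 had none (69.4%), and IL18 alone was ETO2-GLIS2 only. The IL18 peak was not strong. Interferon-stimulated genes were shared in 9 of 25 and AML1-ETO only in 6. IRF9, a factor of the interferon response, and GBP2, a guanylate-binding protein, were ETO2-GLIS2 only, at ranks 2587 and 25265. Among 10 MHC class II genes HLA-DMA was shared, with ETO2-GLIS2 rank 861 and AML1-ETO rank 37980 at another start site, and CD74, the invariant chain, was ETO2-GLIS2 only at rank 7340.

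Ribosomal protein genes were widely occupied at modest strength. The cytosolic ones were shared in 53 of 79 and AML1-ETO only in 17, with median percent ranks of 28.5 and 46.9, against 17.1 and 32.2 over all genes. RPL36AL, the strongest for AML1-ETO, has the same promoter peak as MGAT2, at rank 193. Mitochondrial ribosomal protein genes were shared in 38 of 78 and AML1-ETO only in 25 (32.1%), and MRPL34 was the strongest of them at ranks 232 and 43. The counts were 18 and 10 of 39 for proteasome genes, and 10 and 5 of 20 for aminoacyl-tRNA synthetases. Replication-dependent histones were shared in 40 of 69, but at a −log10 q of at least 10 only 6 were shared and 28 were AML1-ETO only, so their ETO2-GLIS2 peaks were mostly weak. DNA repair genes were shared in 16 of 27 and AML1-ETO only in 8, among them ATM and ATR, and their median percent ranks of 14.9 and 18.5 were stronger than those of all genes. PARP1, which senses strand breaks, had ranks 187 and 289. In the BCL2 family 10 of 16 were shared, and the survival gene BCL2L1 had ETO2-GLIS2 rank 8 (82.8-fold) against AML1-ETO rank 6750 (9.16-fold). E proteins and their partners were shared in 6 of 9.

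GLI, GLIS and Hedgehog genes were shared in 7 of 17, close to the share of all genes. PTCH1, a receptor and target of Hedgehog signalling, had ranks 1921 and 1663 (percent ranks 2.74 and 5.94), and GLI1 had ranks 22273 and 5887. GLI3 and GLIS3 were ETO2-GLIS2 only, and GLI2 was AML1-ETO only. None of these peaks was strong, with −log10 q values of 8.31, 2.69 and 3.17. Tissue-restricted families were mostly free of both proteins. No summit lay at 410 of 414 olfactory receptors, 53 of 55 keratins, 77 of 86 cadherins and protocadherins, 103 of 137 ion channels and 24 of 39 HOX genes. Zinc finger genes of chromosome 19 had none in 160 of 249, against 41.7% of all genes, and 47 were shared. Among ion channels KCNN4, a calcium-activated potassium channel of blood cells, had ETO2-GLIS2 rank 52 and AML1-ETO rank 1704.

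**Figure D3:**
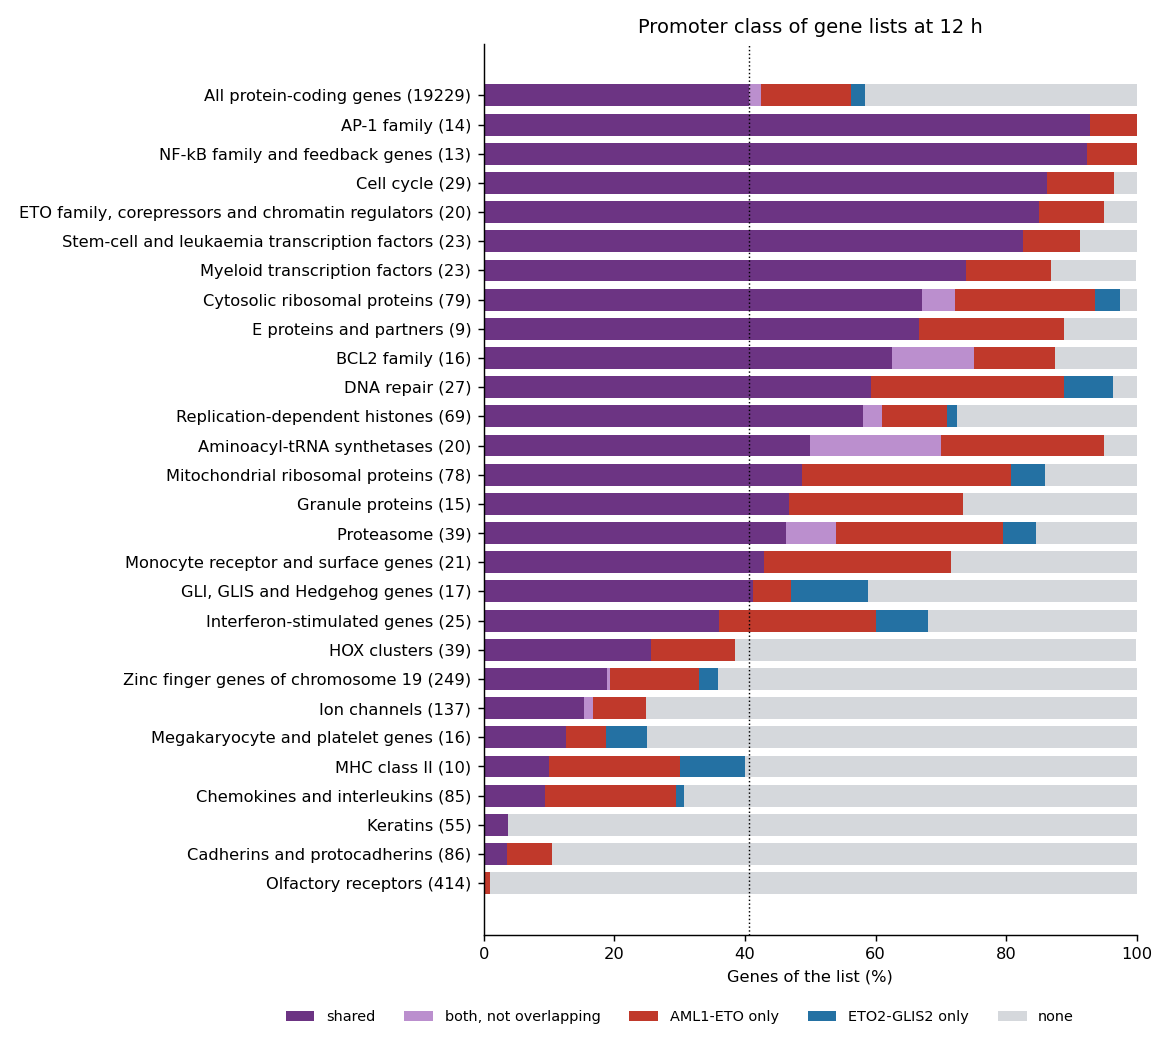
Share of the genes of each list (number of genes in parentheses) whose promoter had a shared peak, separate peaks of both proteins, an AML1-ETO only peak, an ETO2-GLIS2 only peak or none. The dotted line is the shared share of all protein-coding genes, 40.6%; the top row is all genes, AP-1 and NF-kB genes come next and olfactory receptors, with 0 shared, are at the bottom.

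Distal summits were assigned to the nearest protein-coding start within 100 kb. By this rule 4233 genes (22%) had a shared distal summit, 9636 (50.1%) an AML1-ETO only one and 3451 (17.9%) an ETO2-GLIS2 only one. Genes with a shared promoter also had shared distal summits more often, in 32.9% (31.9 to 34.0), than genes with no promoter summit, in 11.7%. Long genes collect more summits by this rule, so counts per gene are descriptions.

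Genes that gathered the most shared distal summits included regulators of transcription and signalling, and also SLC6A6 with 14 and DENND3 with 13. ZMIZ1, a coactivator, had 19 shared, 31 AML1-ETO only and 8 ETO2-GLIS2 only summits, and RUNX1 had 18, 62 and 5, the most AML1-ETO only summits of any gene. MAD1L1, of the spindle checkpoint, had 15, 58 and 7, and PREX1, an activator of Rac, 15, 49 and 1. For ETO2-GLIS2 only summits the leader was KCNRG, in a region of chromosome 13, with 15 beside 8 shared and 5 AML1-ETO only, and of the 8 leading genes it was the only one where this class outnumbered both others. TSNARE1 followed with 12 and LYST, a regulator of lysosome traffic, with 10.

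At SPI1, which codes for the myeloid factor PU.1, both proteins had several peaks and ordered them differently. The strongest AML1-ETO peak lay upstream of the gene, at chr11:47409052-47417749 (rank 651), where ETO2-GLIS2 had peaks at ranks 1795 and 1978. The strongest ETO2-GLIS2 peak lay in an intron, at chr11:47380630-47383569 (rank 188, 92.6-fold), where AML1-ETO had rank 1374. At the start site the ETO2-GLIS2 peak had rank 447 and its AML1-ETO partner rank 6980. CEBPB had a shared promoter with AML1-ETO rank 12768 and ETO2-GLIS2 rank 2036, and 3 further AML1-ETO only peaks within 20 kb upstream. RHOU, a small GTPase, had the opposite order, with AML1-ETO rank 1558 and ETO2-GLIS2 rank 5125.

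Of the genes that gave the fusions their parts, RUNX1 with 20 kb upstream held 100 AML1-ETO peaks, of which 21 were shared, and 38 ETO2-GLIS2 peaks, of which 32 were shared. RUNX1T1 held no peak of either protein. CBFA2T3 had a shared region over its start with AML1-ETO rank 1424 and ETO2-GLIS2 rank 533, near-equal percent ranks of 2.03 and 1.9. Upstream of GLIS2, at another annotated start, chr16:4356552-4358345, ETO2-GLIS2 had rank 276 (78.3-fold) and its strongest AML1-ETO partner rank 27076 (4.86-fold), while at the GLIS2 start site AML1-ETO had rank 7737 and ETO2-GLIS2 11955. The tandem RNA5S genes on chromosome 1 held 23 AML1-ETO and 24 ETO2-GLIS2 peaks, the best at ranks 5174 and 1612. Reads of these near-identical copies cannot be placed with certainty.

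Motifs were counted in 200 bp windows around summits and, for comparison, in windows 1 kb to either side. The values that follow are for strong peaks, with shared peaks placed by the AML1-ETO summit unless stated. In all 200 bp tiles of chromosomes 1 to 22, 15.2% held a Runt match, 2.22% a GLIS match, 0.0950% an ETS match and 3.07% an AP-1 match. In windows at the start sites of protein-coding genes these shares were 14.4%, 5.07%, 3.46% and 2.53%.

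The Runt motif was as frequent in strong AML1-ETO only peaks as in strong shared peaks. At distal summits 44.3% of AML1-ETO only peaks (43.1 to 45.4) and 43.8% of shared peaks (42.2 to 45.4) held it, against 17.3% and 18.0% of their flanks. ETO2-GLIS2 only distal peaks held it in 24.3% (21.7 to 27.0), against 19.1% (17.4 to 20.8) of flanks. At promoters the shares were 29.6% for AML1-ETO only, 27.8% for shared and 11.9% (9.98 to 14.0) for ETO2-GLIS2 only, the last with an interval that overlapped that of its flanks (14.4%, 12.9 to 16). Over peaks of any strength the distal shares were lower and no longer alike, at 26.1% (25.7 to 26.5) for AML1-ETO only, 36.2% (35.2 to 37.2) for shared and 18.1% for ETO2-GLIS2 only.

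The GLIS motif was most frequent in strong ETO2-GLIS2 only peaks. It was found in 14.4% of ETO2-GLIS2 only promoter summits (12.3 to 16.6), against 4.45% of their flanks, and in 9.65% of distal ones (7.95 to 11.6), against 4.18%. Shared promoters held it in 7.86% and AML1-ETO only promoters in 3.20%, the latter below their flanks (4.35%, 3.91 to 4.83). Placed by the ETO2-GLIS2 summit in place of the AML1-ETO summit, shared promoters held the GLIS motif in 12.4% (11.5 to 13.4), an interval that overlaps that of ETO2-GLIS2 only promoters, and the Runt motif in 21.3%. Over peaks of any strength this order was lost: ETO2-GLIS2 only promoters held the GLIS motif in 7.79% (6.58 to 9.13), shared promoters in 6.97% (6.46 to 7.51) and, by the ETO2-GLIS2 summit, 10.0% (9.42 to 10.6), and AML1-ETO only promoters in 4.68%. Among the 672 strong ETO2-GLIS2 peaks without any AML1-ETO peak, GLIS matches stood at 9.38% (7.28 to 11.8, flanks 4.24%) and Runt matches at 17.4% (14.6 to 20.5), level with flanks of 17.1%. Among the 6314 strong AML1-ETO peaks without any ETO2-GLIS2 peak, the Runt share was 42.2% (flanks 16.7%) and the GLIS share 2.52% (flanks 3.05%).

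Other motifs were counted in the same windows. AP-1 matches were found in 7.59% of AML1-ETO only, 9.41% of shared and 10.0% of ETO2-GLIS2 only distal summits, each against 3.38% to 3.47% of flanks. The ETS motif was found in 2.92% (2.42 to 3.49), 2.58% (2.13 to 3.09) and 2.59% (1.71 to 3.74) of promoter summits in the same order, above flanks of at most 0.320%. Of these intervals, only that of shared peaks lay below the 3.46% of all start sites. The C/EBP motif (TTGCNNAA) was at 15.3% to 17.6% of distal summits and 8.06% to 9.40% of flanks. CAGCTG, an E-box, was at 23.7% of shared distal summits, 20.6% of ETO2-GLIS2 only and 16.5% of AML1-ETO only ones. The NF-Y motif (CCAAT) was scarcer at shared promoter summits (10.5%) than in their flanks (20.6%) and was at 14.0% of AML1-ETO only and 18.2% of ETO2-GLIS2 only promoter summits, the last against 19.2% of flanks. The GC box (GGGCGG) was at 57.5% (56.0 to 59.0) of shared, 50.1% (47.0 to 53.2) of ETO2-GLIS2 only and 45.4% (43.8 to 46.9) of AML1-ETO only promoter summits. GC content was 69.3% at shared promoter summits and 51.6% in their flanks. A motif match is a run of letters and not a site that was shown to be used.

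AML1-ETO peaks lay on tandem repeats of Runt matches far more often than ETO2-GLIS2 peaks did. This count was added after the BAHCC1 and KRTAP5-6 sequences had been seen. Chromosomes 1 to 22 were split into 1 kb tiles, and tiles were grouped by their number of Runt matches. AML1-ETO peaks overlapped 3.22% of the 1175006 tiles with 0 matches, 10.4% of the 7310 with 5 to 9, 23.7% of the 641 with 10 to 19 and 42.1% of the 337 with 20 or more. ETO2-GLIS2 peaks overlapped 1.41%, 3.30%, 3.43% and 5.34% of the same tiles. With a −log10 q of at least 10, the tiles with 20 or more matches were overlapped in 24.6% by AML1-ETO and in 1.19% by ETO2-GLIS2, against 1.52% and 0.729% of tiles with 0.

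Of the 18 tiles with 20 or more matches that ETO2-GLIS2 overlapped, AML1-ETO overlapped 17. The separate 48 h libraries gave 52.2% for AML1-ETO and 5.93% for ETO2-GLIS2 at 20 or more matches, against 5.49% and 1.56% at 0. The 978 tiles with at least 10 matches formed 746 runs of neighbouring tiles, of which AML1-ETO overlapped 221 (29.6%) and ETO2-GLIS2 35 (4.69%) at 12 h. Repeats hold reads that cannot all be placed, and copy number can differ between clones, whose part was not tested.

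Seen by peak, 59 of 14216 AML1-ETO peaks at least 1 kb wide held 10 or more Runt matches per kb, against 1 of 4477 ETO2-GLIS2 peaks. Of the 59, 44 (74.6%) were AML1-ETO only, where 26.5% of all AML1-ETO peaks of that width were. Besides BAHCC1 with 72 matches and BDH1 with 35, the strongest were the region nearest KCNF1 (rank 180, 29 matches), an intronic region nearest HK3, a hexokinase of myeloid cells (rank 408, 78 matches, shared), and AGPAT3 (rank 418, 66 matches). With GLIS matches the shares of both proteins rose, and in proportion that of ETO2-GLIS2 rose more. Tiles with 3 to 4 GLIS matches were overlapped in 15.7% by AML1-ETO and 10.8% by ETO2-GLIS2, against 3.56% and 1.34% of tiles with 0. The shares were 8.29% and 4.70% with 5 or more. These groups hold fewer matches than the densest Runt groups, so the motifs were not compared at equal counts.

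The 12 h classes were last compared with the 48 h lists, each of which comes from 1 further ChIP library. Strong AML1-ETO peaks without any ETO2-GLIS2 peak at 12 h were almost all in the AML1-ETO list at 48 h (6164 of 6314, 97.6%), and 25.3% overlapped ETO2-GLIS2 there, 40.9% at promoters and 19.2% at distal sites. Strong ETO2-GLIS2 peaks without any AML1-ETO peak at 12 h met the other protein more often. Of these 672, 475 (70.7%, 67.1 to 74.1) overlapped an ETO2-GLIS2 peak at 48 h and 473 (70.4%) an AML1-ETO peak, and 371 (55.2%) overlapped both. At promoters 81.2% had gained an AML1-ETO overlap. Over all peaks, whatever their strength, 20.7% of ETO2-GLIS2 only and 65.4% of AML1-ETO only peaks met a 48 h peak of their own protein, and 52.9% of ETO2-GLIS2 only peaks met neither list. The AML1-ETO list was longer at 48 h, and a longer list overlaps more peaks.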

How the data were processed

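The files analysed were narrowPeak lists of anti-HA ChIP-seq in U937 clones, 1 library for each fusion protein and time, called against input. Per the labels and the submitters' processing notes, the authors aligned reads to hg19 with Bowtie2 2.2.9, handled them with SAMtools 1.7 and called peaks with MACS2 2.1.1.20160309, and deepTools is also named. The deposited columns hold a display score, the fold enrichment at the summit (a ratio to local background), and −log10 p and −log10 q, as the authors' caller wrote them. The score was not used. The lists hold no read numbers. The study lists read totals and mapping rates, which entered no calculation here, and fold and −log10 q were compared only within a list.

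Peaks on chromosomes 1 to 22 were overlapped with Python 3.11.15, numpy 2.4.6, pandas 2.3.3 and SciPy 1.17.1, tested on simulated data and against bedtools 2.31.1. Summits were placed on GENCODE release 44 lifted to GRCh37, promoters within 1 kb of a start and distal summits at the nearest protein-coding start within 100000 bp. Sequences came from GRCh37 through SAMtools 1.23.1, and none was taken from chromosome 8. Genes are named by these rules: the 5 strongest regions of each class and place, 5 pairs of largest rank disagreement each way among the strongest 5% of a list, the up to 3 best-ranked members of each gene list, and the loci SPI1, CEBPB, RHOU, RNA5S, RUNX1, RUNX1T1, CBFA2T3 and GLIS2. Other members are named where a count is small, and some items that these rules name are not reported here. The classes, lists and rules were chosen with earlier results of these data known, and the repeats of Runt matches were counted after values were seen. Alternatives were the strong peaks alone, equal list lengths, summits within 200 bp, a promoter of 3 kb, protein-coding starts alone, the ETO2-GLIS2 summit and ranks by fold.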

Additional observations from a re-analysis of the deposited data

How the results depend on the processing

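The shared percentage of ETO2-GLIS2 peaks was 74.5% and moved to 80.7% among strong peaks, 64.6% with 28019 peaks in each list and 41.5% when summits had to lie within 200 bp. That of AML1-ETO peaks was 26.2% and moved to 43.3%, 53.5% and 16.6% under the same alternatives. ETO2-GLIS2 thus kept the larger shared percentage in each of them. The promoter share of shared peaks was 49.9% and became 53.4% among strong peaks, 62.6% with a promoter of 3 kb, 43.4% with protein-coding starts alone and 48.5% by the ETO2-GLIS2 summit. For AML1-ETO only peaks it became 36.6%, 39.9% and 15.2% under the first 3 of these, and for ETO2-GLIS2 only peaks, from 24.8%, 49.5%, 43.8% and 19.7%. Among strong peaks 4224 genes had a shared promoter in place of 7803, and 770 were ETO2-GLIS2 only in place of 418. Runt, GLIS, ETS and AP-1 shares by class over all peaks in 200 bp windows moved beyond their intervals in 24 of 24 cases when strong peaks alone or 100 bp windows were taken, and ETO2-GLIS2 only peaks held the GLIS motif in 5.82% over all peaks and 12.0% over strong ones. The cause was not tested, beyond that strong peaks are fewer by construction. No paired analysis was possible because there was 1 library for each protein and no test was made. Peaks were not called again at equal depth, so the part of depth in weak or absent peaks was not tested.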
